A study of Mus musculus with 16 samples.

Results

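The 10 genes described here are a list of macrophage and monocyte markers: Cd68, Adgre1, Csf1r, Mrc1, Cd163, C1qa, C1qb, C1qc, Lyz2 and Fcgr3. The list was written down by name, with earlier results of these data known, and 10 of its 10 genes were among the 13320 genes measured. Messenger RNA of mouse quadriceps muscle was sequenced in 16 libraries, 4 in each of 4 groups. All libraries came from male CD2F1 mice aged 8 weeks at injection. C26 cells come from a mouse colon carcinoma, and mice that carry them lose muscle. In the group named splenic C26 the cells were put into the spleen, a route that seeds tumours in the liver, and the sham group had the operation with saline. In the group named subcutaneous C26 the cells were placed under the skin. What the group named control received is not stated in the labels. Sample titles share 1 prefix in the sham and splenic C26 groups and another in the control and subcutaneous C26 groups. No label ties a library to its own animal, so every p-value below is set by how far these libraries varied, and that variation may be technical.

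Macrophages are phagocytes that live in muscle between the fibres or arrive there as blood monocytes. The receptor Csf1r, bound by Csf1 and Il34, carries the signal on which most macrophages depend for survival. Adgre1 encodes the surface protein F4/80, Cd68 a glycoprotein of lysosomes, and Fcgr3 a low-affinity receptor for antibody. Mrc1 (the mannose receptor CD206) and Cd163 (the receptor for haptoglobin-bound haemoglobin) are scavenger receptors used to mark resident macrophages. C1qa, C1qb and C1qc encode the 3 chains of C1q, which starts the classical complement pathway and in tissues is made largely by macrophages. Lyz2 encodes lysozyme of monocytes, macrophages and neutrophils. In bulk muscle, fewer cells of a type and less RNA per cell cannot be told apart.

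Promoter windows of RefSeq (GRCm38.p6, 250 bases before to 50 after a start) were given for 7 of the 10 genes, in 8 windows, since Fcgr3 had 2. Only the 250 bases before each start were searched. The 2 Fcgr3 windows overlap and hold the same matches, which are counted in both. The factor PU.1 drives many myeloid genes, and the letters GAGGAA, the core of its site, stood on either strand in 6 of the 8 windows, against 23.3% of all 32851 windows of the same length. The windows of Cd163 and Lyz2 held none. TTNNGNAA, part of the site of C/EBP factors, matched 7 of the 8 windows against 36.8% of all windows. TGANTCA, the site of AP-1, matched the window of Cd68 alone against 6.75% of all windows, and TTCNNNGAA, the site of STAT factors, matched 0 against 7.02%. Matches of different motifs did not overlap in the 8 windows. These matches describe letters and not binding. Shown here are the 250 bases before the start of 3 genes that the results turn on: C1qb, which varied together with 8 other members, Cd68, which did not, and Cd163, which rose in the subcutaneous C26 group. Capitals mark GAGGAA, read 5′ to 3′ along the strand of the gene.
C1qb, chr4:136886201-136886450, minus strand: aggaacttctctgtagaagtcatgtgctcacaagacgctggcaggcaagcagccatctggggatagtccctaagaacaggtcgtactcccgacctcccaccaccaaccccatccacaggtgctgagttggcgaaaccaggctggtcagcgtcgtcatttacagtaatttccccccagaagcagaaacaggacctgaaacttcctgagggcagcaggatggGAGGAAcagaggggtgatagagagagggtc
Cd68, chr11:69666171-69666420, minus strand: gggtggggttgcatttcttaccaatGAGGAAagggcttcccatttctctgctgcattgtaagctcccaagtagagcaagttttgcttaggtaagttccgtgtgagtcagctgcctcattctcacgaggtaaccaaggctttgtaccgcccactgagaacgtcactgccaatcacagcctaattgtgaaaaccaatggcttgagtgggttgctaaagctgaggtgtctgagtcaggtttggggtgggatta
Cd163, chr6:124304401-124304650, plus strand: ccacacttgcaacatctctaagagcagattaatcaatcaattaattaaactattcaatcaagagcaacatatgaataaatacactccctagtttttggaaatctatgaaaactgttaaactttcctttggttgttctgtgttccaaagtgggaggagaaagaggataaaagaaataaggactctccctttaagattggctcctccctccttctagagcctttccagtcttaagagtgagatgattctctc
In the Cd68 window GAGGAA began 225 bases and the AP-1 letters 149 and 24 bases before the start, and in the C1qb window GAGGAA began 30 bases before it.

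Total counts were 25.9 to 34.9 M per library, and each member had at least 10 counts in every library. All levels below are CPM (counts scaled to the size of the library) after TMM scaling, an edgeR factor that was 0.802 to 1.21 here. The first principal component held 65.4% of the variance. Splenic C26 library 1 (score -6.31) and subcutaneous C26 library 3 (6.003) stood apart on it from the other 6 tumour libraries (64.6 to 93.3) and from the sham and control libraries (-60.8 to -55.4). Some libraries held transcripts of other tissues or of proliferation. The hepatocyte gene Alb stood at 76.2 CPM in splenic C26 library 1 and at 16.5 to 127 CPM in the control group. The neutrophil precursor gene Ngp stood at 45.8 CPM in splenic C26 library 3 and 11.8 CPM in control library 1. The proliferation gene Mki67 stood at 52.3 CPM in subcutaneous C26 library 4. Summed muscle fibre genes stood at 117900 to 273400 CPM in every library, so the tissue matched its label.

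Per kilobase of exon, the sham muscle held most Lyz2 and least Adgre1 of the list. On this scale (CPM per kb, mean ± SD, n = 4) Lyz2 stood at 72.6 ± 9.38. The C1q chains followed, with C1qa at 30.3 ± 4.12, C1qb at 18.7 ± 3.17 and C1qc at 13.6 ± 2.16. Csf1r (6.51 ± 0.822), Cd68 (5.99 ± 1.09) and Mrc1 (5.72 ± 0.512) lay within their SDs of each other. Fcgr3 (4.89 ± 0.662), Cd163 (3.19 ± 0.432) and Adgre1 (1.76 ± 0.169) were the lowest. Neighbours from C1qb to C1qc and from Csf1r to Fcgr3 did not differ beyond these SDs. Within each sham library, though, C1qb was above C1qc (17.2, 18.9, 15.6 and 23.0 against 12.3, 14.1, 11.6 and 16.5). The order of Csf1r, Cd68, Mrc1 and Fcgr3 changed between sham libraries. In splenic C26 muscle Cd68 came second after Lyz2 on the same scale (29.1 ± 26.7 against 41.5 ± 20.1), with an SD close to its mean. In subcutaneous C26 muscle Cd163 (7.99 ± 4.48) and Mrc1 (7.09 ± 3.93) had higher means than Csf1r (3.36 ± 1.42), the reverse of the control group (3.10 ± 1.24, 4.42 ± 1.07 and 5.45 ± 1.54).

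**Figure D1:**
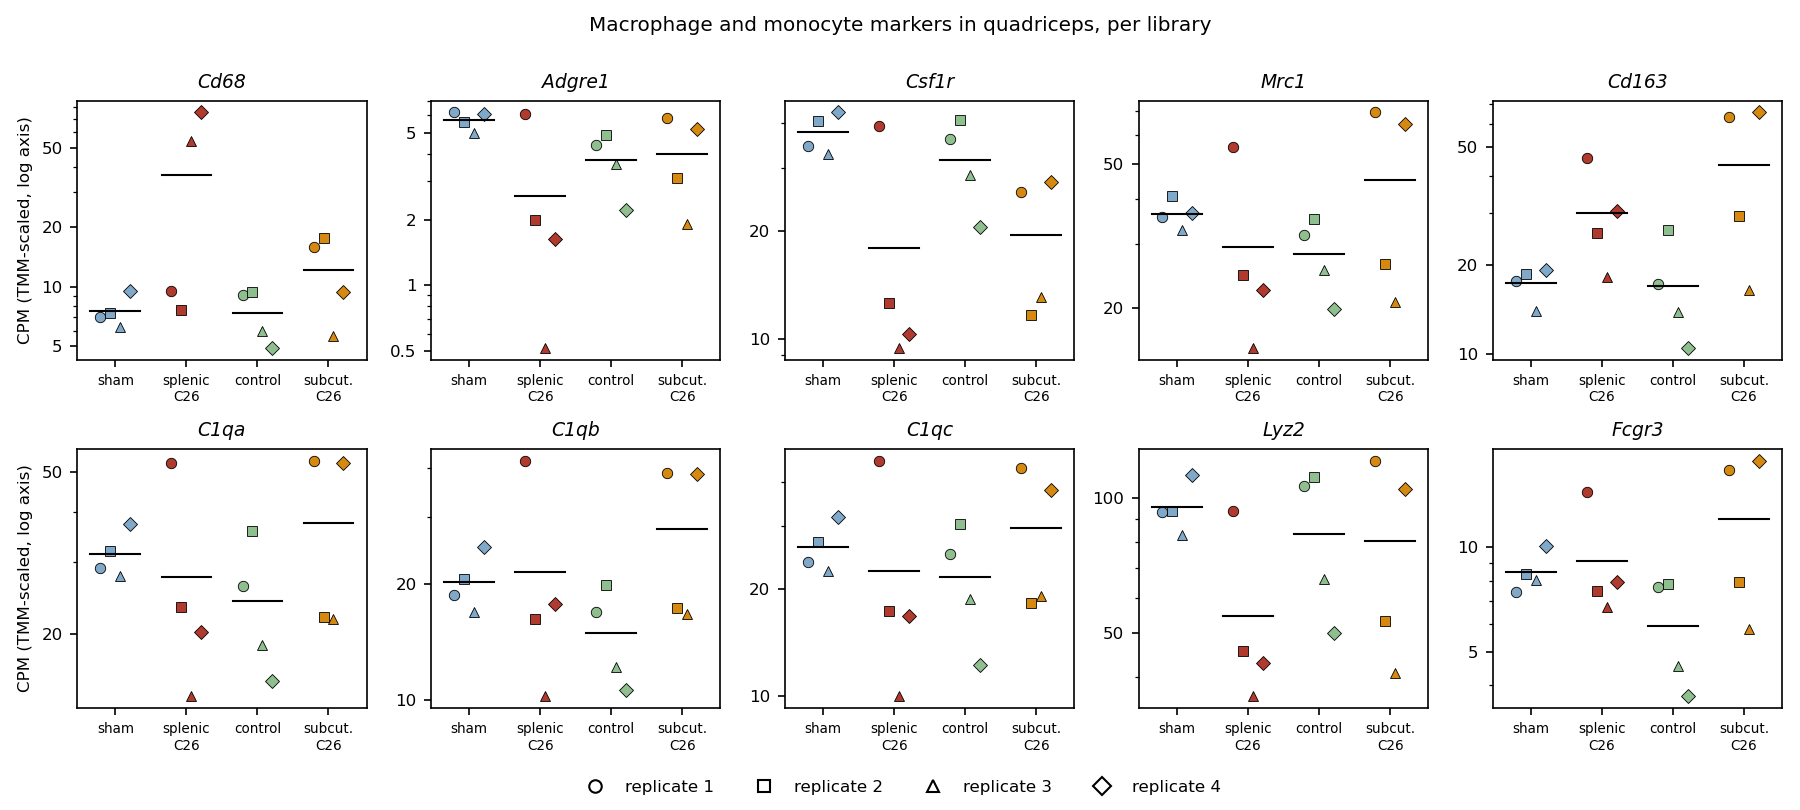
TMM-scaled CPM (log axis) of the 10 members in each of the 16 libraries, grouped on the horizontal axis; each point is a library, its shape gives the replicate number and the line is the group mean. Splenic C26 library 1 (circle) is the highest of its group for every member but Cd68, and subcutaneous C26 libraries 1 and 4 lie above libraries 2 and 3 for 9 of the 10 members.

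Splenic C26 muscle held more Cd68 and less Csf1r than sham muscle, and the other 8 members did not pass the test. In edgeR's quasi-likelihood test with Benjamini-Hochberg adjustment, 52.0% of all genes passed at an adjusted p of 0.05, 28.1% higher and 23.9% lower, so 2 of 10 is below that share. Of all calls 54.0% were higher, and 38.5% with upper-quartile scaling. At an unadjusted p under 0.05, 4 members passed. The median log2 fold change of the 10 members was -0.21, beside -0.029 for all genes. For 0 of the 10 members were the splenic C26 and sham libraries free of overlap, while 42.2% of all genes had groups that did not overlap.

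Csf1r, the growth factor receptor, stood at 34.6, 40.4, 32.7 and 42.7 CPM in sham libraries 1 to 4. In splenic C26 libraries 1 to 4 it stood at 39.1, 12.6, 9.45 and 10.3 CPM. Libraries 2, 3 and 4 were below every sham library and library 1 was within the sham range. The log2 fold change was -1.07 ± 0.41 (SE, adjusted p = 0.0416). That call was lost without any 1 of the sham libraries (adjusted p 0.0554 to 0.0828), without splenic C26 library 2 (0.103), 3 (0.112) or 4 (0.118), and without control library 1 (0.0501) or 3 (0.0505), which share the estimate of the spread. Without splenic C26 library 1 the log2 fold change was -1.79 (adjusted p = 0.000206).

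Adgre1 followed the same order across the splenic C26 libraries, with 6.10, 1.99, 0.517 and 1.63 CPM against 4.98 to 6.18 CPM in sham muscle. Its log2 fold change of -1.14 ± 0.52 did not pass (adjusted p = 0.0751), and was -2.02 (adjusted p = 0.00113) without splenic C26 library 1. Lyz2 stood at 93.8, 45.7, 36.2 and 42.9 CPM in splenic C26 muscle and at 82.8 to 112 CPM in sham muscle. Its log2 fold change was -0.80 ± 0.36 (adjusted p = 0.0758), and -1.19 (adjusted p = 0.00993) without splenic C26 library 1. The genes Lyz2 and Lyz1 lie 5476 bases apart on chromosome 10 and are near-identical, so reads could have been split between them. Lyz1 stood at 2.34 to 8.14 CPM over the 16 libraries.

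Cd68 was the member that rose. Splenic C26 libraries 3 and 4 held 53.9 and 75.5 CPM, whereas libraries 1 and 2 held 9.51 and 7.58 CPM, at or near the sham values of 6.27 to 9.47 CPM. The log2 fold change was 2.28 ± 0.61 (4.86-fold, adjusted p = 0.00643), so it rests on 2 of 4 libraries. Without splenic C26 library 4 it was 1.65 (adjusted p = 0.0311).

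Among the scavenger receptors, Cd163 stood at 46.0, 25.6, 18.3 and 30.4 CPM in splenic C26 muscle against 14.03 to 19.3 CPM in sham muscle. Of the 4 splenic C26 libraries 3 were above every sham library. The log2 fold change was 0.79 ± 0.39 with an adjusted p of 0.103, and omitting subcutaneous C26 library 3, which enters the estimate of the spread, brought that to 0.0496. Mrc1 stood at 55.5, 24.7, 15.6 and 22.5 CPM against 32.8 to 40.7 CPM, higher than sham in library 1 and lower in the other 3 (log2 fold change -0.30 ± 0.39, adjusted p = 0.538).

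The 3 C1q chains ranked the splenic C26 libraries in nearly the same order. C1qa stood at 52.8, 23.3, 14.1 and 20.2 CPM, C1qb at 41.9, 16.3, 10.3 and 17.7 CPM, and C1qc at 45.9, 17.3, 10.01 and 16.8 CPM. The sham ranges were 27.7 to 37.4, 17.0 to 25 and 22.4 to 31.8 CPM. Library 1 was above the sham range for each chain, and library 3 was the lowest. None passed the test, with log2 fold changes of -0.19 for C1qa, 0.087 for C1qb and -0.22 for C1qc (SE 0.38 to 0.41, adjusted p 0.666 to 0.860). Upper-quartile scaling put C1qb at -0.070. Fcgr3 stood at 14.4, 7.48, 6.72 and 7.92 CPM against 7.45 to 10.1 CPM, with a log2 fold change of 0.11 ± 0.35 (adjusted p = 0.809; -0.070 with upper-quartile scaling).

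Subcutaneous C26 muscle held more Cd163 and Fcgr3 than control muscle, and the other 8 members did not pass. Of all genes 50.0% passed in this comparison, 27.0% higher and 23.1% lower, so 2 of 10 is again below that share. Of all calls 53.9% were higher, and 34.9% with upper-quartile scaling. At an unadjusted p under 0.05, 3 members passed. The median log2 fold change of the members was 0.66 beside -0.022 for all genes, and 8 of the 10 values were positive (7 with upper-quartile scaling, where Adgre1 was at -0.15). For 0 of the 10 members were the groups free of overlap, against 45.9% of all genes.

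Cd163 stood at 63.2, 29.4, 16.5 and 65.5 CPM in subcutaneous C26 libraries 1 to 4 and at 17.2, 26.3, 13.8 and 10.5 CPM in control libraries 1 to 4. Libraries 1, 2 and 4 exceeded every control library and library 3 was within the control range. The log2 fold change was 1.36 ± 0.40 (2.57-fold, adjusted p = 0.0111), and between 1.08 (adjusted p = 0.0470, without subcutaneous C26 library 4) and 1.64 when single libraries were left out. Without 4 libraries (splenic C26 1 and 3, control 1, subcutaneous C26 4) it was 1.09 with an adjusted p of 0.0620. These exceeded 10 CPM of Ngp, Mki67 or, outside the control group, Alb, and are called libraries with transcripts of other tissues below. Control libraries 2, 3 and 4 were kept, with Alb at 67.7, 24.6 and 127 CPM.

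Fcgr3 stood at 16.7, 7.97, 5.80 and 17.8 CPM against 7.69, 7.82, 4.54 and 3.73 CPM in control muscle. Libraries 1, 2 and 4 exceeded every control library, and library 3 was within the control range. The log2 fold change was 1.02 ± 0.35 (adjusted p = 0.0265). The call was lost without control library 3 (adjusted p = 0.0721) or 4 (0.0751) and without subcutaneous C26 library 1 (0.0961) or 4 (0.111).

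The C1q chains were high in the same libraries 1 and 4. C1qb stood at 39.0, 17.4, 16.8 and 38.6 CPM against 10.6 to 19.9 CPM (log2 fold change 0.90 ± 0.39, adjusted p = 0.0642), and passed without splenic C26 library 1 (adjusted p = 0.0224) or 3 (0.0421), or without subcutaneous C26 library 3 (0.0321). C1qa stood at 53.4, 22.0, 21.7 and 52.7 CPM against 15.3 to 35.8 CPM, and C1qc at 43.66, 18.2, 19.2 and 38.0 CPM against 12.3 to 30.4 CPM. Their log2 fold changes were 0.64 ± 0.40 and 0.46 ± 0.41 (adjusted p 0.192 and 0.368). Mrc1 stood at 69.2, 26.4, 20.8 and 64.1 CPM against 19.96 to 35.3 CPM (0.68 ± 0.40, adjusted p = 0.162).

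Csf1r was the member with the lowest log2 fold change in subcutaneous C26 muscle. It stood at 25.7, 11.7, 13.1 and 27.3 CPM against 36.1, 40.8, 28.6 and 20.5 CPM in control libraries 1 to 4 (log2 fold change -0.70 ± 0.41, adjusted p = 0.169; -0.72 and 0.0346 without splenic C26 library 1, which shares the estimate of the spread). Adgre1 stood at 5.83, 3.11, 1.91 and 5.18 CPM against 2.202 to 4.86 CPM, and Lyz2 at 121, 53.3, 40.8 and 105 CPM against 50.01 to 111 CPM. Their log2 fold changes of 0.093 ± 0.51 and -0.058 ± 0.36 did not pass (adjusted p 0.893 and 0.907). Cd68 stood at 15.9, 17.7, 5.63 and 9.41 CPM against 4.91 to 9.41 CPM (0.73 ± 0.59, adjusted p = 0.311). Its highest libraries, 1 and 2, were not the pair in which the C1q chains were highest.

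**Figure D2:**
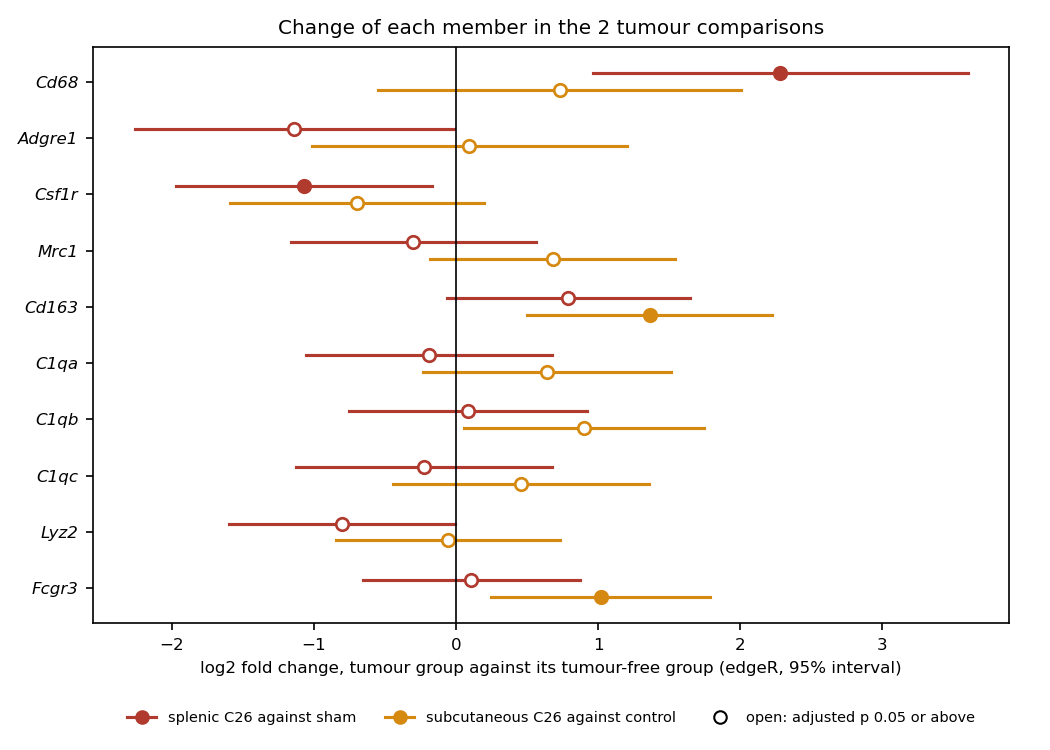
Log2 fold change of each member with its 95% interval (edgeR) for splenic C26 against sham and subcutaneous C26 against control; filled points passed an adjusted p of 0.05. Cd68 (2.28) and Csf1r (-1.07) are filled for the splenic route and Cd163 (1.36) and Fcgr3 (1.02) for the subcutaneous route.

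The tumour effect was compared between the routes as an interaction in the same edgeR fit, and 0 of the 10 members passed. The differences, splenic minus subcutaneous, ran from -1.23 ± 0.72 for Adgre1 (95% interval -2.81 to 0.34) to 1.55 ± 0.83 for Cd68 (-0.25 to 3.36), with a median of -0.78. Of all genes 0.00% passed. At an unadjusted p under 0.05 there were 851 genes and 0 members, and DESeq2 called 86 genes and limma-voom 0, with 0 members in either. Without splenic C26 library 1 and subcutaneous C26 library 3, which stood apart on the first principal component, Adgre1 (-2.35, adjusted p = 0.0365) and Mrc1 (-1.72, 0.0485) passed. Sham and control muscle were compared the same way, and again 0 members passed, with log2 differences from 0.035 for Cd68 to 0.60 for Adgre1, sham higher in each. Cd68 and Cd163 turned to the other sign without some single libraries. In that comparison 0.00751% of all genes passed, which is 1 gene, with 285 genes and 0 members at an unadjusted p under 0.05, and DESeq2 called 58 genes. Only Adgre1 had sham and control libraries that did not overlap, beside 4.86% of all genes.

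Within groups, 9 of the 10 members varied together from library to library, and Cd68 did not. Each library was expressed as its log2 CPM minus the mean of its group. Over the 16 libraries the 36 pairs without Cd68 had Pearson correlations of 0.79 to 0.99 (median 0.93), and the 9 pairs with Cd68 had -0.32 to 0.094 (median -0.18). These values describe likeness. Such correlations were not computed for pairs of all genes, so varying together is not shown to be particular to this list. The points share the depth and scaling of each library. Averaged over the members, splenic C26 library 1 was 0.87 above and library 3 0.60 below its group on the log2 scale. Subcutaneous C26 libraries 1 and 4 were 0.65 and 0.53 above and library 3 was 0.80 below. Control library 2 was 0.50 above and library 4 0.59 below, while sham libraries stayed within 0.22 of their mean.

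**Figure D3:**
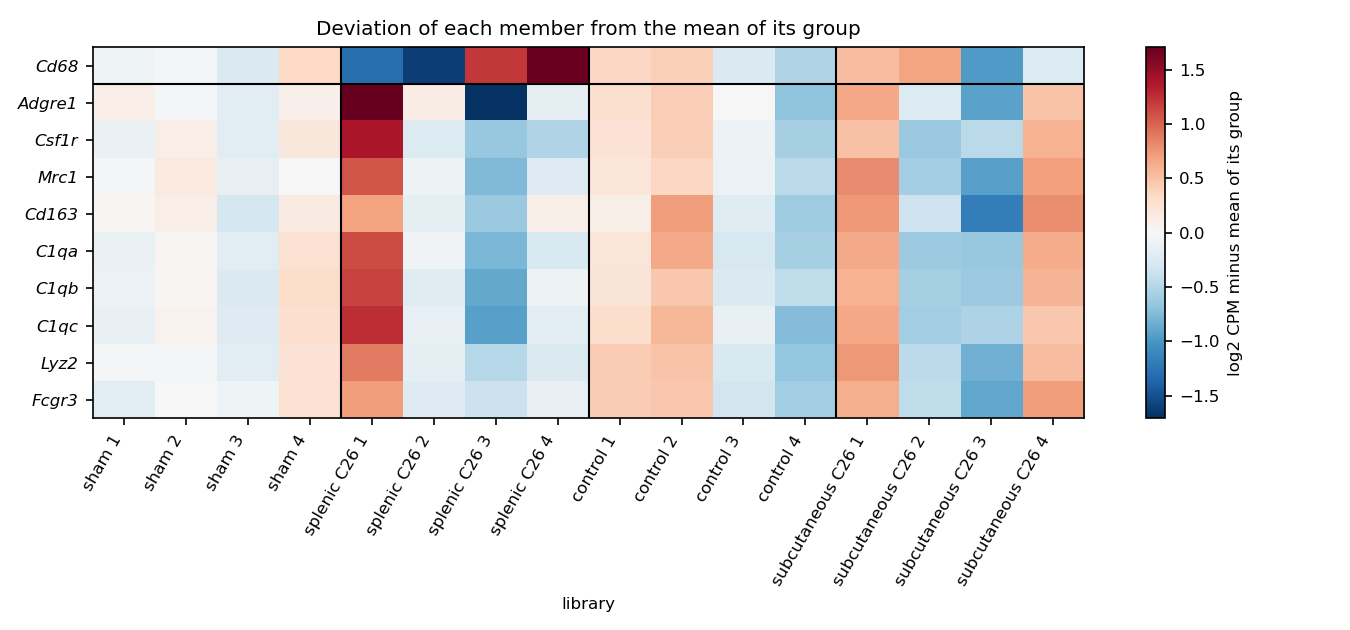
Deviation of each member (rows) in each library (columns) from the mean of its group in log2 CPM; red is above and blue below, and black lines separate the groups and Cd68 from the other members. In splenic C26 library 1 the 9 other members are above their group mean while Cd68 is below it.

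The genes outside the list most like it were taken by the correlation of their deviations with the mean deviation of the members, among 12002 genes with a mean of at least 1 CPM. Highest were Ddr2, a collagen receptor (r = 0.98), Rnase4, a ribonuclease (0.98), C3ar1, the receptor for complement fragment C3a (0.98), Ifi204, an interferon-induced gene (0.97), and Dcn, the matrix proteoglycan decorin of fibroblasts (0.97). Spearman correlations were 0.94 to 0.99 and r without splenic C26 library 1 and subcutaneous C26 library 3 was 0.95 to 0.98. Of the 5, Ddr2 (-0.81 ± 0.29, adjusted p = 0.0280) and C3ar1 (-1.10 ± 0.38, 0.0234) fell in splenic C26 muscle, and Ifi204 rose in subcutaneous C26 muscle (1.56 ± 0.30, 0.000957). Of 11 markers of fibro-adipogenic cells, 9 fell in splenic C26 muscle, and 7 fell and 1 rose in subcutaneous C26 muscle. The collagen gene Col1a2 was among those that fell in both (log2 fold change -2.39 and -2.31), and Dcn did not pass (-0.69 and -0.62, adjusted p 0.0962 and 0.137). Their summed level was 2017 to 2569 CPM in sham, 450.2 to 1665 in splenic C26, 1569 to 2840 in control and 534 to 1020 in subcutaneous C26 muscle. Their part in the level of the members was not tested.

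Because 9 members moved together within groups, the count of a member was divided by the count of another in the same library, which no scaling factor enters. This was done for all 45 pairs after the values above had been seen. The ratios of 26 of 45 pairs did not overlap between splenic C26 and sham, of 22 between subcutaneous C26 and control, and of 12 between the tumour-free groups, sham and control. These are 57.8%, 48.9% and 26.7% of the pairs, beside 41.3%, 45.5% and 5.62% of all pairs of genes, so the share in subcutaneous C26 muscle was near that of all pairs. Each of these reached 0.0286, the smallest value that a two-sided exact permutation test of 4 against 4 libraries can give, and 0.0643 after adjustment over the 135 tests, so no single ratio passed. Each member enters 9 pairs, so the 45 pairs are not separate observations. Genes that vary together may also have steadier ratios than other genes, so the shares of all pairs may not be a like measure. Ratios to Csf1r were among those that differed most often. In subcutaneous C26 muscle the ratio of each of the 9 other members to Csf1r was higher than in every control library, and in splenic C26 muscle the same held for 7 of 9 against sham, not for Adgre1 and Lyz2. Of all other genes 27.1% and 24.2% had such a higher ratio to Csf1r. Between sham and control 1 of 9 had it, Adgre1, beside 0.173% of all genes.

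The ratio of Cd163 to Csf1r was higher in both tumour groups. Its count was 0.464 ± 0.0339 of that of Csf1r in sham muscle (SD, n = 4) and 2.02 ± 0.725 in splenic C26 muscle (1.18 to 2.94). The ratio was 0.530 ± 0.0780 in control and 2.16 ± 0.601 in subcutaneous C26 muscle (1.26 to 2.52). The ratio of Cd163 was higher without overlap against 8 of its 9 partners in splenic C26 and 5 of 9 in subcutaneous C26 muscle, and lower against 0. Against all other genes it was higher without overlap for 41.0% and 18.1%. C1qb over Csf1r went from 0.539 ± 0.0334 to 1.29 ± 0.302 by the splenic and from 0.476 ± 0.0386 to 1.43 ± 0.106 by the subcutaneous route. Fcgr3 over Csf1r went from 0.226 ± 0.0182 to 0.610 ± 0.177 and from 0.186 ± 0.0222 to 0.607 ± 0.111. Lyz2 over Csf1r overlapped between splenic C26 (2.40 to 4.16) and sham (2.31 to 2.70). The ratio of Adgre1 was lower without overlap against 7 of 9 partners in splenic C26 muscle and against 3 of 9 in subcutaneous C26 muscle, where it was higher against Csf1r. Against all other genes the ratio of Adgre1 was lower without overlap for 23.5% and 5.59%. Between sham and control, the ratio of Cd68 was lower in sham against 6 of its 9 partners, and against 0.586% of all other genes. The span of Csf1r overlaps that of the gene Hmgxb3 on chromosome 18 (mm10, 61100598 to 61132149, plus strand). Where counting did not use strand, reads from any exon sequence that both genes cover could not be told apart. Whether their exons overlap was not examined.

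**Figure D4:**
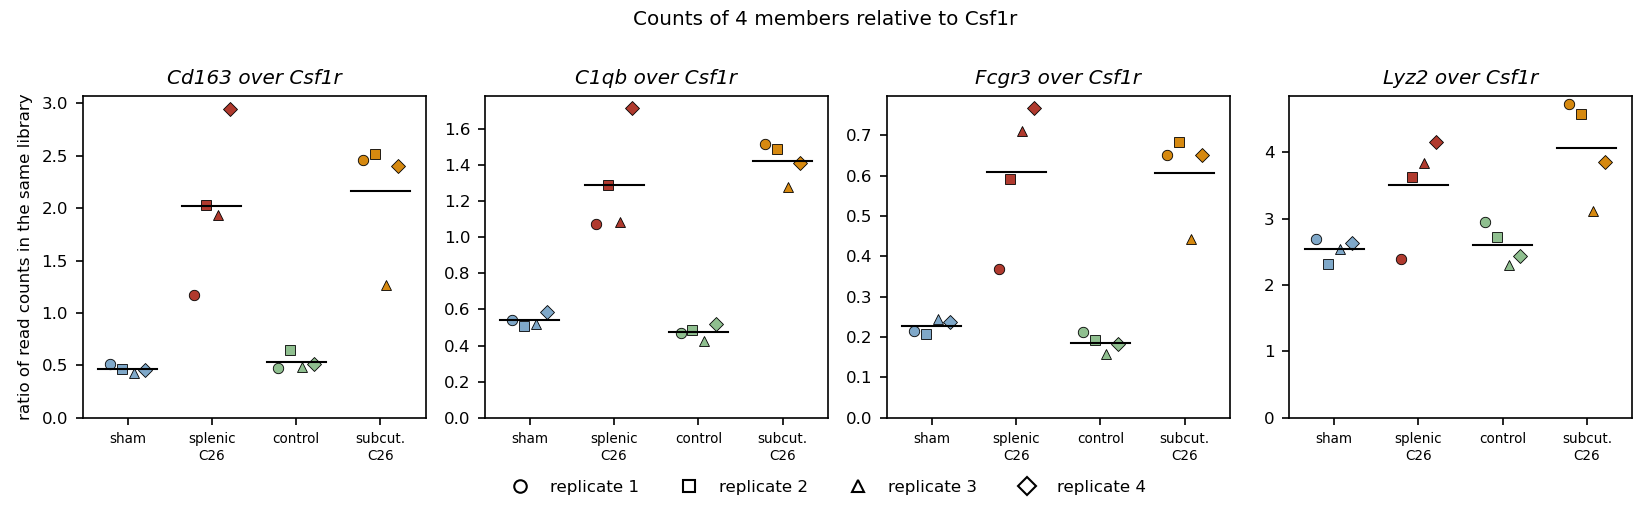
Read counts of Cd163, C1qb, Fcgr3 and Lyz2 divided by those of Csf1r in the same library; points are libraries, shapes replicate numbers and lines group means, and each axis starts at 0. In the panels of Cd163, C1qb and Fcgr3 every tumour library lies above every tumour-free library of its comparison, and splenic C26 library 1 (2.40) lies within the sham range for Lyz2.

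Cd68 differed from the other members also in where it moved. It lies on chromosome 11 (mm10, 69664213 to 69666153, minus strand), 783 bases downstream of the end of Eif4a1, a translation initiation factor on the same strand. The neighbours of Cd68 and Lyz2 were chosen for display after their values were seen. Eif4a1 rose in both tumour comparisons, from 59.6 to 72.2 CPM in sham to 105, 160, 268 and 295 CPM in splenic C26 libraries 1 to 4 (log2 fold change 1.69 ± 0.28, adjusted p = 0.000376). In subcutaneous C26 libraries 1 to 4 it stood at 209, 211, 99.6 and 204 CPM against 56.8 to 66.4 CPM in control muscle (1.54 ± 0.28, 0.000668). The libraries with most Cd68, splenic C26 3 and 4, were those with most Eif4a1, and the deviations of the 2 genes from their group means had r = 0.85 over 16 libraries. The share of all genes with such a correlation to Cd68 was not computed. Other genes were also highest in those 2 libraries, among them Runx1, Gpnmb and Cd14, so this pattern is not particular to the neighbour. The counts of Cd68 were 9.80% to 15.6% of those of Eif4a1 in sham libraries and 8.66% to 14.4% in control libraries. They were 9.08%, 4.73%, 20.1% and 25.6% in splenic C26 libraries 1 to 4 and 4.60% to 8.38% in subcutaneous C26 libraries. Relative to its neighbour Cd68 was thus high in splenic C26 libraries 3 and 4 and low in every subcutaneous C26 library. Whether reads of Eif4a1 entered the count of Cd68 was not tested.

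**Figure D5:**
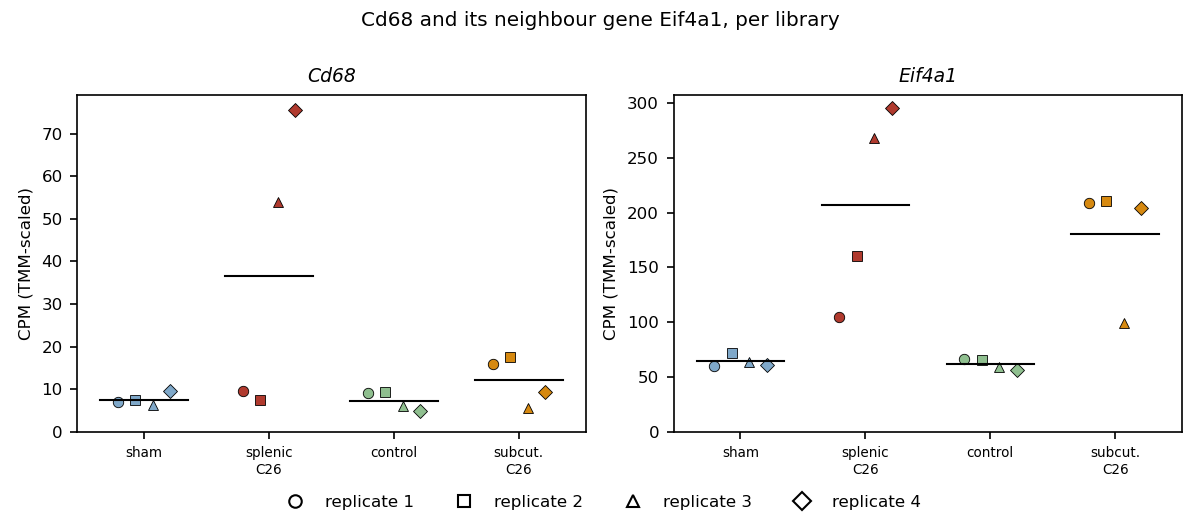
TMM-scaled CPM of Cd68 and of Eif4a1, the gene next to it on the same strand, in each library; shapes give replicate numbers, lines group means, and both axes start at 0. Splenic C26 libraries 3 and 4 are the highest for both genes, while splenic C26 library 2 has 160 CPM of Eif4a1 and 7.58 CPM of Cd68.

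The counts of the gene lists that follow stand beside 28.1% of all genes higher and 23.9% lower in splenic C26 muscle, and 27.0% higher and 23.1% lower in subcutaneous C26 muscle. Of 13 genes of Csf1r signalling and myeloid transcription factors, 2 rose and 2 fell in each tumour comparison, shares below those of all genes. Cebpb, a C/EBP factor, rose (log2 fold change 1.99 ± 0.28 splenic, 2.09 ± 0.28 subcutaneous, adjusted p 0.000127 and 0.000100), as did Runx1 (3.07 ± 0.57 and 2.24 ± 0.55). Of the 2 ligands, Il34 fell (-0.92 ± 0.30, adjusted p = 0.0198, and -1.43 ± 0.31, 0.00186), and Csf1 was at -0.35 and -0.17 (adjusted p 0.253 and 0.596). Spi1, which encodes PU.1, stood at 0.055 and 0.27 (adjusted p 0.900 and 0.514). Of 5 further Fc receptor genes 1 fell in splenic C26 muscle, Fcgrt (-0.88 ± 0.28, adjusted p = 0.0181), and 2 rose in subcutaneous C26 muscle, Fcgr4 (2.78 ± 0.74) and Fcgr2b (1.46 ± 0.45). The spleen-injected group had Fcgr4 at 1.70 ± 0.70 (adjusted p = 0.0515).

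Complement genes other than C1q numbered 16. In splenic C26 muscle 1 rose, C4b (1.97 ± 0.39, adjusted p = 0.00118), and 3 fell, among them C3ar1. In subcutaneous C26 muscle 5 rose and 1 fell, with C4b at 3.19 ± 0.41 and C3 at 1.79 ± 0.37 (adjusted p 9.46e-05 and 0.00148). Of 15 genes of the phagocyte lysosome and oxidase, 6 rose in each comparison and 1 fell in subcutaneous C26 muscle. Ctsl, a lysosomal protease, rose by 2.58 ± 0.38 and 2.31 ± 0.37 on the log2 scale. Gpnmb, a transmembrane glycoprotein, rose by 4.14 ± 0.78 and 2.61 ± 0.74. Muscle fibres express many of these protease genes as well.

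Of 16 genes that mark resident macrophages, 3 rose and 5 fell in splenic C26 and 6 rose and 4 fell in subcutaneous C26 muscle. The share that rose was below the 28.1% of all genes in splenic C26 and above the 27.0% in subcutaneous C26 muscle. The share that fell was above the 23.9% and 23.1% of all genes. Whether the list differs from all genes was not tested. Timd4, a receptor for phosphatidylserine, fell in both (-2.004 ± 0.64 and -1.99 ± 0.66, adjusted p 0.0175 and 0.0205), as did the chemokine Ccl24 (-1.57 ± 0.48 and -1.89 ± 0.49). Mertk, a receptor for dying cells, rose (0.90 ± 0.34, adjusted p = 0.0367, and 1.55 ± 0.34, 0.00226). Of 18 genes of monocytes and their recruitment, 8 rose and 2 fell in splenic C26 and 6 rose and 3 fell in subcutaneous C26 muscle. Plac8 rose by 4.12 ± 0.60 and 4.99 ± 0.60 and the chemokine Ccl6 by 1.51 ± 0.34 and 2.32 ± 0.35. Ccr2, the chemokine receptor of classical monocytes, was at -0.20 ± 0.42 and 0.25 ± 0.42 (adjusted p 0.700 and 0.640).

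Of 9 genes of antigen presentation by class II molecules and of dendritic cells, 7 fell and 0 rose in splenic C26 muscle, and 3 fell and 0 rose in subcutaneous C26 muscle, against 23.9% and 23.1% of all genes lower. Their summed level was 357 CPM in sham library 1 and 179 to 201 CPM in the other sham libraries. In splenic C26 muscle it was 179 CPM in library 1 and 33.4 to 49.2 CPM in libraries 2 to 4. The 7 that fell were 3 without sham library 1 or without splenic C26 library 2, 3 or 4, and 8 without splenic C26 library 1. The 3 that fell in subcutaneous C26 muscle were 1 to 5 when single libraries were left out. H2-DMa fell by 1.71 ± 0.36 and 1.21 ± 0.36 on the log2 scale (adjusted p 0.00151 and 0.0112), H2-Aa by 1.82 ± 0.53 and 1.31 ± 0.52 (0.0103 and 0.0479). Of 8 inflammatory activation genes 4 fell in each comparison, among them Irf5 (-1.51 ± 0.36 and -1.53 ± 0.35) and Nos2 (-0.95 ± 0.24 and -1.26 ± 0.24), and 2 rose in splenic C26 muscle. Of 10 genes of alternative activation 3 rose and 2 fell in each. Il4ra (2.17 ± 0.25 and 1.77 ± 0.24) and Hmox1, which degrades haem (1.96 ± 0.36 and 2.53 ± 0.37), rose in both, and Retnla fell in both (-2.59 ± 0.53 and -2.11 ± 0.52). Arg1, which hepatocytes also make, rose in splenic C26 (3.13 ± 1.05) and fell in subcutaneous C26 muscle (-3.87 ± 0.80) at low levels, highest in the libraries that held the hepatocyte gene Alb. It stood at 0.670 CPM in splenic C26 library 1 (Alb 76.2 CPM) and at 0.0361 to 0.329 CPM in the other 3, at 0.666, 2.66, 0.726 and 3.66 CPM in control libraries 1 to 4 (Alb 16.5, 67.7, 24.6 and 127 CPM), and at no more than 0.0593 CPM in sham and 0.222 CPM in subcutaneous C26 muscle. The part of liver transcripts in the values of Arg1 was not tested.

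Markers of other cells that could carry the members' transcripts were measured beside them. Of 12 pan-leukocyte genes 1 fell and 0 rose in each comparison (in splenic C26, 7 fell without the libraries with transcripts of other tissues and 3 without splenic C26 library 1), and their summed level was 83.6 to 99.8 CPM in sham, 44.1 to 95.8 in splenic C26, 59.9 to 105 in control and 40.9 to 87.4 in subcutaneous C26 muscle. Of 13 neutrophil genes 11 rose in splenic C26 muscle (5 without splenic C26 library 3) and 1 in subcutaneous C26 muscle (3 without control library 1). Without the libraries with transcripts of other tissues 7 and 10 rose. Their summed level was 5.71 to 7.48 CPM in sham, 27.3 to 2521 in splenic C26, 5.34 to 58.0 in control and 26.3 to 455 in subcutaneous C26 muscle. These sums are no neutrophil level, since Lcn2, also made by liver and muscle, held most of them in the tumour groups, with 15.5, 262, 2318 and 620 CPM in splenic C26 and 417, 374, 20.9 and 190 CPM in subcutaneous C26 libraries 1 to 4. Lcn2 rose in both comparisons (9.90 ± 1.47 and 6.71 ± 1.27). Of 8 markers of Kupffer cells, the macrophages of the liver, 4 were measured (Clec4f, a gene that defines them, was not among the genes tested), with a sum of 14.01 to 22.8 CPM in sham, 4.56 to 18.3 in splenic C26, 9.45 to 18.4 in control and 11.49 to 30.2 in subcutaneous C26 muscle. Folr2 and Timd4 stood in this list and in that of resident macrophages, and Folr2 alone held 9.12 to 14.6 CPM in sham muscle. These sums are thus no level of liver macrophages. Of 9 hepatocyte genes 8 rose in splenic C26 (1 without splenic C26 library 1) and 8 fell in subcutaneous C26 muscle. Hepatocyte genes summed to 134 CPM in splenic C26 library 1, in which 9 members were the highest of their group. They summed to 30.9 to 234 CPM in the control group, beside at most 4.91 CPM in the other libraries. The 234 CPM were in control library 4, where the members averaged 0.59 below their group on the log2 scale. Of 5 mast cell genes 3 fell in splenic C26 and 2 in subcutaneous C26 muscle, and of 3 red cell genes 2 and 1 rose. Of 11 endothelial genes 8 rose and 1 fell in splenic C26 muscle, and 2 rose and 4 fell in subcutaneous C26 muscle. Of these Esam had the smallest p in splenic C26 muscle, where it rose (log2 fold change 1.18 ± 0.15, adjusted p = 6.44e-05). Kdr, the VEGF receptor of endothelium, was the 1 that fell there, and it fell in both comparisons (-1.28 ± 0.17 and -1.79 ± 0.17, adjusted p 0.000105 and 1.48e-05). Of 13 genes of T, B and NK cells 0 were among the genes tested. The part of these cells in the members' levels was not tested.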

How the data were processed

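Quadriceps RNA was isolated and sequenced at one time for all samples, as 75-base paired ends, per the labels' protocols. The authors deposited raw counts of reads per gene symbol, made with STAR and featureCounts, per the labels. The submitters' processing notes list FastQC, STAR and edgeR with the build mm10. Versions, annotation and strand setting: not given in the sources used here. The authors also deposited log2 values. With a constant for each gene and for each library, these matched log2 CPM from the counts (residual SD 0.00180 over 8287 genes with at least 100 counts in each library). From the deposited counts 13320 genes were used, and 4013 rows with no gene name were not. All 13320 had over 0.5 CPM in 4 or more libraries, and filterByExpr removed 0. Coordinates and exon lengths came from GENCODE M21 on mm10 (12868 symbols matched).

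Samples were grouped by their tumour label, and replicate numbers only name libraries. No pair of libraries agreed within counting noise (lowest chi-square per degree of freedom 12.9). The test was the quasi-likelihood test of edgeR 4.0.16 (R 4.3.3) on the counts, with TMM scaling, robust estimation, a mean for each group, all 16 libraries in the fit, Benjamini-Hochberg adjustment over all genes and a threshold of 0.05. It was also run on simulated data in which few genes changed, and only in the splenic C26 group. That run cannot show how the test performs where as many genes change as here. Alternatives were RLE and upper-quartile scaling, stricter count filters, removal of the 10 most abundant genes, DESeq2 1.42.0, limma-voom and limma-trend (limma 3.58.1, the latter on the deposited log2 values), fits of only the libraries compared, and omission of each library.

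The members and lists were chosen with earlier results of these data known. Named were the 10 members, the 5 genes most like the members, and marker genes beside a result. Of the 2 genes with the smallest p among those that passed in each list and comparison, only some were named. Among those left out were Cd36, Gas6, Icam1 and Fcna. The other genes named, the neighbours Eif4a1 and Lyz1, the ratios of members, the counts of lists without single libraries, and 2 removals of libraries were picked after values were seen. The first removal took libraries with Ngp or Mki67 over 10 CPM or, outside the control group, Alb over 10 CPM. The second took splenic C26 library 1 and subcutaneous C26 library 3.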

Additional observations from a re-analysis of the deposited data

Results flagged for a closer look

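Of 40 sets of 4 libraries (10 members in 4 groups), 3 held a library far from the other 3. Chance alone flags about 1 set in 20 where sets vary independently. Most members varied together, so 3 of 40 cannot be judged against that share. The gap to the nearest library, as a share of the whole range in CPM, was above the 95% critical value of Dixon's test in each, and the library was splenic C26 library 1 each time. Csf1r stood at 39.13 CPM there and at 9.45 to 12.6 CPM in the other 3 splenic C26 libraries (share 0.894). Lyz2 stood at 93.79 CPM against 36.2 to 45.7 CPM (0.835). Fcgr3 stood at 14.39 CPM against 6.72 to 7.92 CPM (0.844). These are not separate cases, since the deviations of the 3 genes from their group means had r of 0.88 to 0.98 over the 16 libraries.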

How the results depend on the processing

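No paired analysis was possible because the labels give no number that ties a library of one group to a library of another. In splenic C26 against sham, the count of members higher (1) was 1 to 2 without single libraries and 2 with only the libraries compared. The count lower (1) was 0 to 3 without single libraries, 2 with upper-quartile scaling or DESeq2, 3 with limma-voom, limma-trend or without the libraries with transcripts of other tissues, and 5 without splenic C26 library 1 and subcutaneous C26 library 3. In subcutaneous C26 against control, the count higher (2) was 1 to 3 without single libraries, 1 with upper-quartile scaling, 0 without the libraries with transcripts of other tissues and 5 without the 2 libraries that stood apart, and the count lower (0) was 0 to 1 without single libraries and 1 without those with transcripts of other tissues. Upper-quartile scaling moved the median of all genes to -0.24 and -0.26. The call of Csf1r in splenic C26 was also lost with only the libraries compared (-1.06, adjusted p = 0.0723), and that of Fcgr3 in subcutaneous C26 with upper-quartile scaling (0.77, 0.0953), with only the libraries compared (1.02, 0.0527) and without the libraries with transcripts of other tissues (0.90, 0.0645). For the difference between the tumour effects, 0 members were lower, and 2 without the 2 libraries that stood apart. All genes higher and lower there numbered 84 and 2 with DESeq2, 167 and 90 without those 2 libraries, and 0 to 66 and 0 to 1 without single libraries. In sham against control, all genes higher and lower numbered 8 and 50 with DESeq2, 1 and 46 without the libraries with transcripts of other tissues, 2 and 44 without the 2 that stood apart, and 0 to 2 and 0 to 47 without single libraries, with 7 lower by limma-trend and 0 with only the libraries compared. The cause of these moves was not tested.

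Signs turned for members that did not pass. In splenic C26, C1qb was at -0.070 with upper-quartile scaling, -0.062 with limma-voom, -0.10 with limma-trend, -0.25 without the libraries with transcripts of other tissues, -0.46 without the 2 that stood apart and -0.45 to 0.32 without single libraries. Fcgr3 was at -0.070, -0.13 and -0.20 in the first and the last 2 of these settings and at -0.19 to 0.23 without single libraries. Without single libraries C1qa was at -0.70 to 0.028 and C1qc at -0.83 to 0.021. In subcutaneous C26, Adgre1 was at -0.15 with upper-quartile scaling, -0.0054 with a filter of 5 CPM and -0.16 to 0.32 without single libraries. Lyz2 was at 0.16 without the 2 that stood apart and at -0.35 to 0.16 without single libraries. In sham against control Cd163 was at -0.13 to 0.33 and Cd68 at -0.12 to 0.17 without single libraries. The log2 ratio of Adgre1 to Csf1r in splenic C26 was 0.051 without the libraries with transcripts of other tissues and 0.045 without splenic C26 library 3. Depth was 25.9 M counts or more and every member had at least 10 counts per library. Without single libraries or either set of libraries, the counts of some lists also moved: in splenic C26, complement genes lower (3) to 0 to 8, mast cell genes lower (3) to 0 to 4 and endothelial genes higher (8) to 4 to 9, and in subcutaneous C26, resident macrophage genes higher (6) to 2 to 6 and complement genes higher (5) to 3 to 6.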
